A study of Mus musculus with 16 samples.

Results

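The 7 genes described here encode parts of the cardiac pacemaking and conduction machinery: the ion channels *Hcn2* and *Hcn4*, the connexins *Gja5* and *Gjc1*, the adhesion molecule *Cntn2*, and the transcription factors *Tbx3* and *Irx3*. They were taken as a list of symbols and not by a threshold on measured values, though with earlier results of these data known. Each symbol matched 1 Ensembl identifier among the 51912 of the count table, and all 7 passed the filter on low counts that left 20159 genes for testing. RNA was sequenced from mouse ventricles in 16 libraries, with 4 in each of 4 groups. WT SH were wild type C57BL/6J mice after sham surgery, and WT MI were the same strain after myocardial infarction. KO SH and KO MI were mice lacking *Lrrc10*, a leucine-rich repeat protein of cardiomyocytes, in a C57BL/6 background, after sham surgery or MI. Surgery was on postnatal day 1, and full ventricles from both sides of the ligature were collected 7 days later. The knockout affects the whole animal. MI was made by ligating the left anterior descending artery, and sham animals had neither the heart exposed nor the artery tied, so exposure and ligation cannot be told apart. The wild type mice were bought and the knockout was bred as a line, and whether libraries share litters or surgery days is not given in the sources used here, so p-values measure the spread between these samples.

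As background, the heartbeat starts in the sinoatrial node and reaches the ventricles through the atrioventricular node, the His bundle, its branches and the Purkinje fibres. HCN channels carry the inward pacemaker current that opens on hyperpolarization, with HCN4 the main form of the nodes and HCN2 the form best known in working myocardium. GJA5 is a fast-conducting connexin of the atria, the Purkinje system and arterial endothelium, while GJC1 is the connexin of nodal cells and of the early heart. CNTN2 marks Purkinje cells and is also found on neurons. TBX3 represses the working myocardial programme in nodal tissue, and IRX3 is a homeodomain factor needed for fast conduction in the ventricular conduction system. The libraries hold whole ventricles, in which conduction cells are a small minority, so fewer cells of a type and less RNA per cell cannot be told apart.

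The libraries held between 33783874 and 57470159 counts. *Lrrc10* lay between 26.3 and 35.6 CPM (read counts scaled to the TMM-adjusted library size) in the WT libraries and had 0 counts in every KO library. A floor of 3 counts in a library corresponds to between 0.0577 and 0.0858 CPM, and such limits cover counting error only. The 6 ventricular cardiomyocyte markers summed to between 22457 and 35821 CPM, whereas the atrial light chain *Myl7* lay between 0 and 10.1 CPM. The labels call the groups sex-balanced, but *Xist* stood at 919 to 985 CPM in 6 libraries and at 6.18 to 23.4 CPM in the other 10, and Y-linked genes ran the opposite way. The 6 libraries were KO SH replicates 1 and 2, WT MI replicates 2 and 4 and KO MI replicates 1 and 2, with 0 in WT SH. Skeletal muscle markers stood apart in KO MI replicate 2 (69.1 CPM over 7 genes) and replicate 7 (113 CPM), against at most 12.5 CPM elsewhere. For the 7 genes, each call that changed without either set of libraries is given both ways.

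In GRCm39 *Hcn2* lies at chr10:79552120-79571948, on the chromosome of *Lrrc10* but 37.3 Mb from it. *Hcn4* lies at chr9:58730132-58770458, *Gja5* at chr3:96812009-96984732 and *Gjc1* at chr11:102686879-102710532. *Cntn2* lies at chr1:132437165-132470994, *Tbx3* at chr5:119806298-119822797 and *Irx3* at chr8:92525153-92528695. All are protein-coding genes in GENCODE. Promoter sequence was taken from RefSeq for the 250 bases before the annotated start. 5 of the 7 genes matched, namely *Hcn2*, *Hcn4*, *Gja5*, *Cntn2* and *Irx3*. The RefSeq windows of *Hcn2*, *Cntn2* and *Irx3* lie wholly inside exons of GENCODE, so sequence is shown for the other two, as far as the first annotated exon base. The *Hcn4* sequence shown ends before the GENCODE span of its gene, whereas that of *Gja5* lies inside its gene's span, before a RefSeq start. Both lie on the plus strand of GRCm39, 150 bases for *Hcn4* at chr9:58729982-58730131 and 243 bases for *Gja5* at chr3:96939468-96939710, and capitals mark the core letters AAGTG bound by NKX2-5.
Hcn4: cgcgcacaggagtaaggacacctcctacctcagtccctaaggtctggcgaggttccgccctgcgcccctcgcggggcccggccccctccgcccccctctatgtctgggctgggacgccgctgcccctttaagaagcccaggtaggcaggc
Gja5: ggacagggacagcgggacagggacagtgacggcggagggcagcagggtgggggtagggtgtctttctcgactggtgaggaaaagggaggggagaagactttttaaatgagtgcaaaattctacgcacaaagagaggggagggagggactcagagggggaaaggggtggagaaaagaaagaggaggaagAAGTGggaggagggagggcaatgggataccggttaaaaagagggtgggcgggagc

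These windows differ in base composition. G and C made up 71.2% of the *Hcn4* window and 70.4% of that of *Hcn2*, against a median of 52.4% over 32851 RefSeq windows of the same length. The values for *Cntn2*, *Gja5* and *Irx3* were 61.2%, 56.4% and 56.0%. On both strands, AAGTG occurred once each in *Gja5*, *Cntn2* and *Irx3*, and not in *Hcn2* or *Hcn4*. Of all windows, 40.7% hold it. The T-box letters GGTGTG were in none of the 5 windows and in 16.3% of all, and the E-box CANNTG was in *Cntn2* and *Hcn2* and in 66.2% of all. These are matches of letters in a short window and say nothing of binding.

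Levels of different genes were compared as CPM per kb of exon. In WT SH *Irx3* was the highest, at 12.6 ± 1.98 CPM per kb (SD, n = 4), followed by *Gjc1* at 4.02 ± 0.272 and *Hcn2* at 3.72 ± 0.202. *Tbx3* followed at 1.63 ± 0.0652, *Gja5* at 1.12 ± 0.133, *Hcn4* at 0.727 ± 0.115 and *Cntn2* at 0.332 ± 0.0372. In this order only *Gjc1* and *Hcn2* overlapped among neighbours in WT SH. Thus the Purkinje marker and the nodal channel were the least abundant of the 7. In KO SH *Hcn4*, at 1.09 ± 0.0565 CPM per kb, stood above *Gja5*, at 0.818 ± 0.149, although their ranges met. In WT MI the order of WT SH returned with no overlap between neighbours. In KO MI the range of *Hcn2*, 1.23 to 2.61 CPM per kb, reached across that of *Tbx3*, and *Gja5* spread from 0.723 to 1.66. Counts behind these values ran from 112 for *Cntn2* in its lowest library to 2607 for *Irx3* in its highest, and the counting error at the lowest library was 9.45% for *Cntn2*, 8.54% for *Hcn4*, 7.88% for *Gja5*, 7.39% for *Hcn2* and under 5% for the rest.

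**Figure D1:**
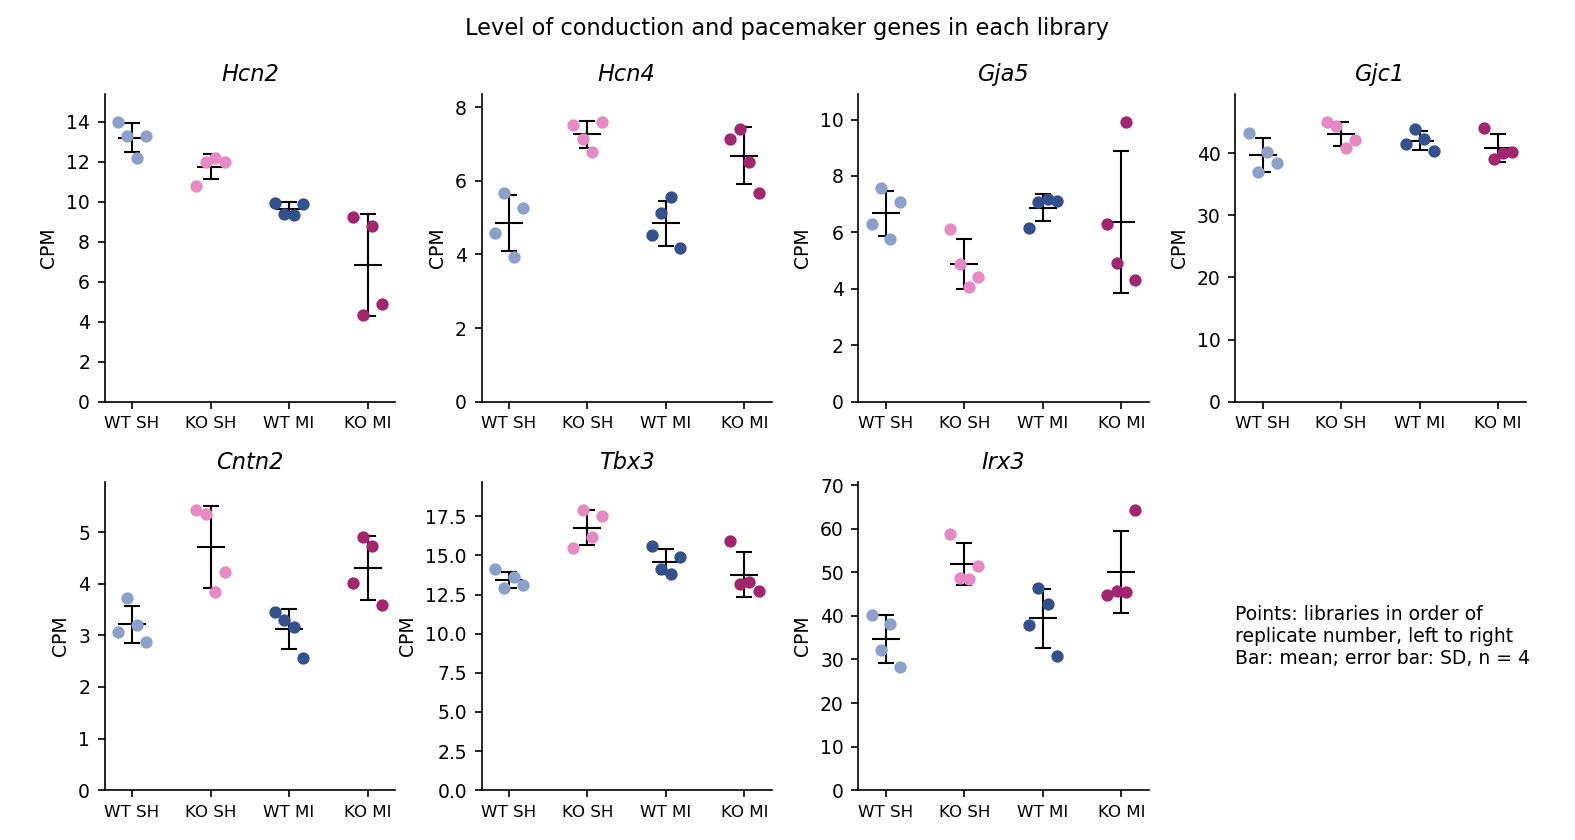
Level of each of the 7 genes in CPM (y axis, from 0) in each library, by group (x axis); points are libraries in order of replicate number, bars are means and error bars are SD (n = 4). *Hcn4* and *Cntn2* sit higher in both KO groups than in the WT group of the same surgery, and *Hcn2* sits lowest in KO MI, with 4.35 and 4.90 CPM in replicates 2 and 7.

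The first comparison asked how loss of *Lrrc10* alters these genes without injury. In KO SH against WT SH, *Hcn4*, *Cntn2* and *Irx3* were called higher, each by about 1.5-fold, and none of the 7 was called lower. A gene was called when the adjusted p (edgeR quasi-likelihood F-test, Benjamini-Hochberg over all tested genes) was under 0.1 and the absolute log2 fold change was at least 0.5. Of all tested genes 5.01% were called, and 2.48% were called and higher. The median log2 fold change was 0.32 over the 7 genes and 0.01 over all tested genes. The KO SH and WT SH ranges did not overlap for 5 of the 7, namely *Hcn2*, *Hcn4*, *Cntn2*, *Tbx3* and *Irx3*, and for 18.5% of all tested genes. The 6 ventricular cardiomyocyte markers summed to 25083 to 35821 CPM in WT SH and to 24064 to 24955 CPM in KO SH, with no overlap. Their log2 fold changes were all below 0, with a median of -0.25, and 3 had an edgeR adjusted p under 0.1, but 0 were called. Their part in the values below was not tested.

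*Hcn4*, the nodal pacemaker channel, measured 4.59, 5.67, 3.92 and 5.25 CPM in WT SH replicates 1 to 4. In KO SH it measured 7.51, 7.13, 6.78 and 7.61 CPM. Every KO SH library lay above every WT SH library. The log2 fold change was 0.58 ± 0.12 (SE), or 1.49-fold, with an adjusted p of 0.00676 in edgeR, and an exact permutation test of log2(CPM + 0.05), run two-sided, gave p = 0.0286, the smallest that 4 libraries against 4 allow. Without the libraries of high *Xist*, the log2 fold change was 0.57 with an edgeR adjusted p of 0.0876. It fell under the minimum, to 0.49, without WT SH replicate 3, the library with the lowest *Hcn4*.

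*Cntn2*, the Purkinje marker, measured 3.06, 3.72, 3.20 and 2.88 CPM in WT SH. The KO SH libraries measured 5.43, 5.35, 3.84 and 4.22 CPM, so the groups were separate but KO SH replicates 3 and 4 came close to WT SH. The log2 fold change was 0.55 ± 0.14, or 1.47-fold (edgeR adjusted p = 0.0238, exact permutation p = 0.0286). The higher pair, KO SH replicates 1 and 2, were the high *Xist* libraries of that group, and without these libraries the log2 fold change was 0.34 with an edgeR adjusted p of 0.311. The call was also lost without KO SH replicate 1 or 2 alone, at a lowest log2 fold change of 0.47. As neurons also carry CNTN2, neuronal markers are given beside it. The 6 neuronal markers summed to between 4.06 and 4.59 CPM in WT SH and between 3.63 and 5.38 CPM in KO SH, with *Th* at 0 in all 8 sham libraries. Only 2 of the 6 passed the filter on low counts, with a median log2 fold change of -0.03 in KO SH against WT SH. The sums of 4 Schwann cell markers were 6.04 to 7.31 and 6.32 to 7.27 CPM.

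*Irx3*, the ventricular conduction factor, measured 40.1, 32.2, 38.2 and 28.2 CPM in WT SH. In KO SH it measured 58.8, 48.7, 48.4 and 51.5 CPM, again with no overlap. The log2 fold change was 0.58 ± 0.14, or 1.50-fold (edgeR adjusted p = 0.0164, exact permutation p = 0.0286). It was 0.53 without the libraries of high *Xist* (edgeR adjusted p = 0.0936). Without WT SH replicate 4, the lowest library, it lay at the border of the minimum (0.50 after rounding) and was no longer called. An antisense gene, *Irx3os*, lies on the other strand and had between 10 and 31 counts in a library, against at least 1167 for *Irx3*.

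*Tbx3*, the nodal repressor, measured 14.1, 12.9, 13.6 and 13.1 CPM in WT SH and 15.5, 17.9, 16.2 and 17.5 CPM in KO SH. All 4 KO SH libraries were higher, but the step was smaller than the minimum for a call, with a log2 fold change of 0.32 ± 0.07 (edgeR adjusted p = 0.0164, exact permutation p = 0.0286). *Hcn2* went the other way by a little, from 12.2 to 14.0 CPM in WT SH to 10.8 to 12.2 CPM in KO SH. The ranges met within rounding without overlapping, and its log2 fold change was -0.17 ± 0.17 (edgeR adjusted p = 0.592, exact permutation p = 0.0286). The edgeR standard error and adjusted p use 1 estimate of the spread shared by all groups, whereas the permutation test uses only the libraries compared. For *Hcn2* the SD was 37.4% of the mean in KO MI and 3.36% to 5.59% in the other groups. For *Gjc1* the log2 fold change was 0.12 ± 0.06 (edgeR adjusted p = 0.228).

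**Figure D2:**
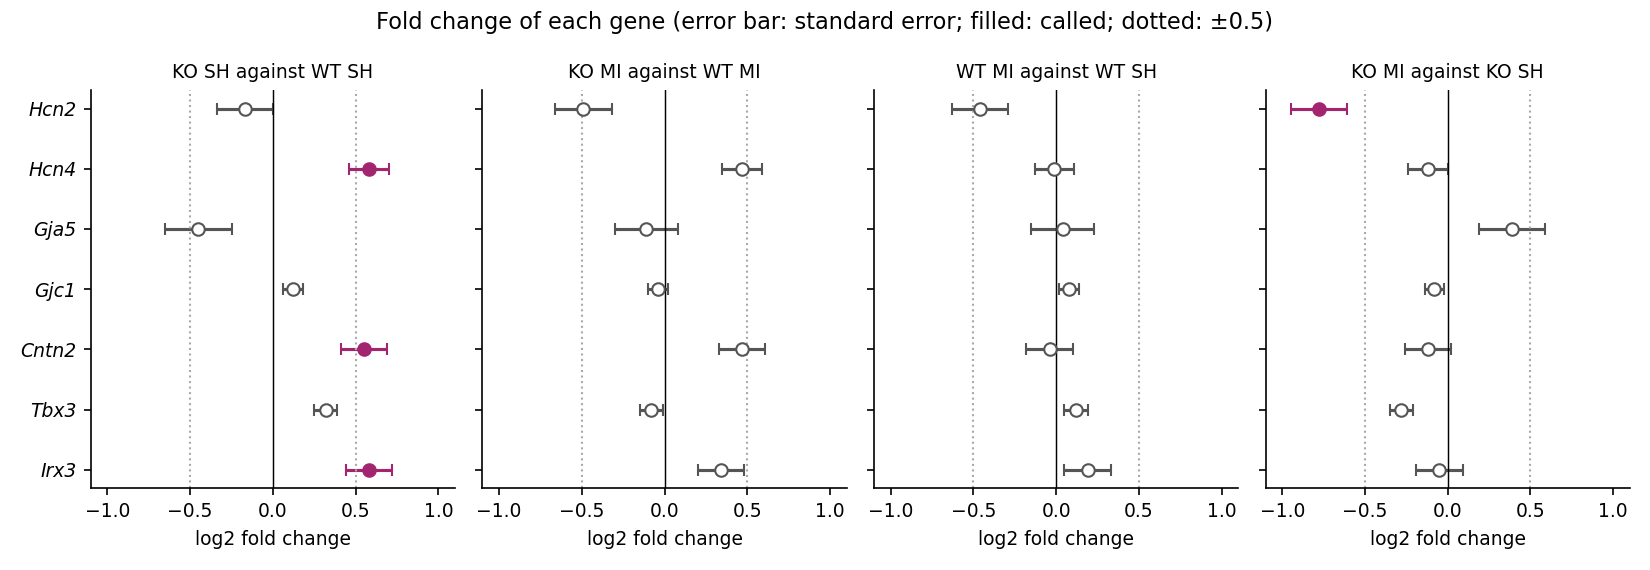
Log2 fold change (x axis) of each of the 7 genes (rows) in 4 comparisons (panels) from the edgeR fit; error bars are standard errors, filled symbols are called, and dotted lines mark the minimum of 0.5. *Hcn4*, *Cntn2* and *Irx3* are called in KO SH against WT SH, and *Hcn2* in KO MI against KO SH at -0.78.

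The second comparison asked for the same difference post-MI. In KO MI against WT MI none of the 7 was called by edgeR, against 1.73% of all tested genes. An unadjusted edgeR p under 0.05 was found for 4 of the 7 (*Hcn2*, *Hcn4*, *Cntn2* and *Irx3*) and for 2503 of the 20159 tested genes. DESeq2 also called none of the 7. The median log2 fold change of the 7 was -0.04, against 0.01 over all tested genes. Ranges did not overlap for 3 of the 7 (*Hcn2*, *Hcn4* and *Cntn2*) and for 6.47% of all tested genes.

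*Hcn4* measured 4.52, 5.12, 5.56 and 4.17 CPM in WT MI. In KO MI replicates 1, 2, 3 and 7 it measured 7.14, 7.40, 6.51 and 5.67 CPM, all above WT MI. The log2 fold change of 0.47 ± 0.12 passed the adjusted p (0.0484 in edgeR) but not the minimum fold. It passed both without KO MI replicate 7 or without WT MI replicate 3. Without the libraries of high *Xist* it was 0.28 with an edgeR adjusted p of 0.727.

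*Cntn2* measured 3.45, 3.29, 3.17 and 2.56 CPM in WT MI and 4.01, 4.90, 4.74 and 3.59 CPM in KO MI. The groups were separate, with a log2 fold change of 0.47 ± 0.14 (edgeR adjusted p = 0.109, exact permutation p = 0.0286), and it was called without KO MI replicate 7. Without the libraries of high *Xist* it was 0.34 with an edgeR adjusted p of 0.659. The neuronal sums were 3.11 to 3.79 CPM in WT MI and 2.28 to 3.33 CPM in KO MI. *Irx3* measured 37.9, 46.3, 42.8 and 30.7 CPM in WT MI and 44.8, 45.7, 45.5 and 64.3 CPM in KO MI. Its groups overlapped, with a log2 fold change of 0.34 ± 0.14 (edgeR adjusted p = 0.280, exact permutation p = 0.114), and of 0.19 without KO MI replicates 2 and 7 (edgeR adjusted p = 0.709). *Tbx3*, at 13.8 to 15.6 CPM in WT MI and 12.7 to 15.9 CPM in KO MI, had a log2 fold change of -0.08 ± 0.07.

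Whether the KO difference itself changed with surgery was tested as the interaction, (KO MI − WT MI) − (KO SH − WT SH). None of the 7 was called by edgeR or DESeq2, against 0.0248% of all tested genes in edgeR. An unadjusted edgeR p under 0.05 was found for 1 of the 7 and for 2745 of the 20159 tested genes. The 1 of the 7 was *Tbx3*, with an interaction of -0.40 ± 0.11 on the log2 scale (unadjusted p = 0.00138 and adjusted p = 0.176 in edgeR). For *Hcn4*, *Cntn2* and *Irx3* the interaction was -0.11 ± 0.17, -0.08 ± 0.20 and -0.24 ± 0.19 (edgeR adjusted p = 0.809, 0.891 and 0.624), so the calls made after sham and not after MI came with no called difference between surgeries. Averaged over both surgeries, *Hcn4* and *Cntn2* were called higher in KO, against 3.71% of all tested genes called and 1.66% called and higher. The averaged log2 fold changes were 0.52 ± 0.08 for *Hcn4* (edgeR adjusted p = 0.000612) and 0.51 ± 0.10 for *Cntn2* (edgeR adjusted p = 0.00353). For *Irx3* it was 0.46 ± 0.10 (edgeR adjusted p = 0.00581), under the minimum fold, which it passed without WT SH replicate 1 or WT MI replicate 2. In the exact permutation test within sham and within MI libraries, *Hcn4* and *Cntn2* each gave p = 0.000408, the smallest it allows. The same exact permutation test gave p = 0.00163 for *Irx3* and p = 0.000408 for *Hcn2*, which was lower in KO. The averaged log2 fold change of *Hcn2* was -0.33 ± 0.12 and was not called (edgeR adjusted p = 0.105). Without KO MI replicates 2 and 7 it was -0.13 (edgeR adjusted p = 0.0987). Without the libraries of high *Xist*, the averaged values of *Hcn4* and *Cntn2* were 0.43 (adjusted p = 0.0771 in edgeR) and 0.34 (adjusted p = 0.175 in edgeR), and neither was called. The *Hcn4* call was also lost without WT SH replicate 3, WT MI replicate 4 or KO MI replicate 2, at 0.48 at the lowest, and the *Cntn2* call in 6 of 16 such omissions, at 0.47 at the lowest.

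The remaining comparisons asked how the genes responded to MI within a genotype. In WT MI against WT SH none of the 7 was called by edgeR or DESeq2, against 2.78% of all tested genes in edgeR. An unadjusted edgeR p under 0.05 was found for 1 of the 7 (*Hcn2*) and for 3325 of the 20159 tested genes. In KO MI against KO SH *Hcn2* fell and was the only 1 of the 7 called, against 7.42% of all tested genes. *Hcn2* was also the gene of the 7 whose ranges did not overlap in either comparison, against 12.1% of all tested genes in WT and 14.9% in KO. These comparisons share libraries with those between genotypes. The ventricular cardiomyocyte markers, at 23725 to 25392 CPM in WT MI, had a median log2 fold change of -0.34 in WT MI against WT SH, where 5 of the 6 were below 0, 3 had an edgeR adjusted p under 0.1 and 0 were called. The median in KO MI against KO SH was -0.13, with 3 again under 0.1 and 0 called. Their part in the *Hcn2* values was not tested.

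*Hcn2*, the HCN channel of working myocardium, measured 14.0, 13.3, 12.2 and 13.3 CPM in WT SH and 9.94, 9.40, 9.31 and 9.88 CPM in WT MI. The WT MI libraries lay close together and all below WT SH. The log2 fold change was -0.46 ± 0.17 (edgeR adjusted p = 0.163, exact permutation p = 0.0286). In KO SH it measured 10.8, 12.0, 12.2 and 12.0 CPM, and in KO MI replicates 1, 2, 3 and 7 it measured 9.25, 4.35, 8.77 and 4.90 CPM. The KO MI group thus held a higher and a lower pair, and the log2 fold change against KO SH was -0.78 ± 0.17 (edgeR adjusted p = 0.00815, exact permutation p = 0.0286), called in each of the 8 fits with 1 library left out (-0.96 to -0.61).

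The lower pair, KO MI replicates 2 and 7, were the libraries with skeletal muscle transcripts. *Myh8*, a myosin of developing skeletal muscle, was at 42.3 and 58.5 CPM there and at most 5.10 CPM in the other 14. *Nppa*, the natriuretic peptide gene of atria and strained ventricle, was at 2396 CPM in replicate 2 and 150 CPM in replicate 7, against 307 and 778 CPM in replicates 1 and 3. Without replicates 2 and 7 the fall of *Hcn2* from KO SH to KO MI had a log2 fold change of -0.39, under the minimum, with an edgeR adjusted p of 0.00327. In the same fit WT MI against WT SH was -0.45 with an edgeR adjusted p of 0.000545, and KO MI against WT MI was -0.10, compared with -0.49 ± 0.17 with all libraries (edgeR adjusted p = 0.186). The KO MI against WT MI difference was called without KO MI replicate 1 or 3, the higher pair, with -0.68 as its largest size. The part of the skeletal muscle transcripts or of *Nppa* in these values was not tested.

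**Figure D3:**
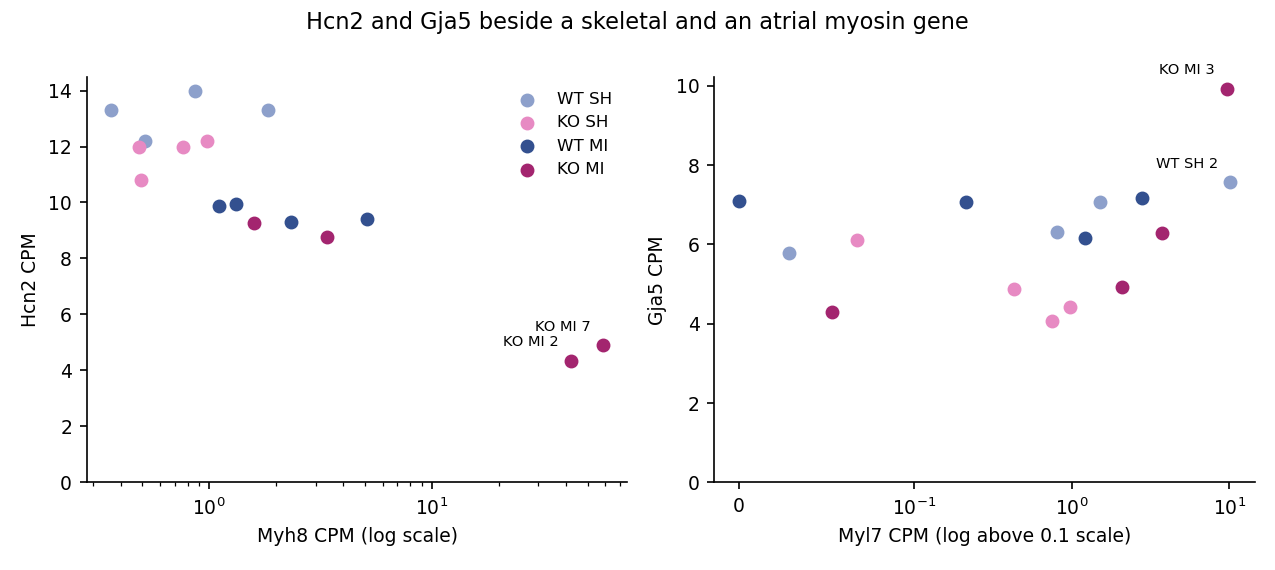
Left, *Hcn2* CPM (y axis) against *Myh8* CPM (x axis, log scale); right, *Gja5* CPM against *Myl7* CPM (x axis, linear below 0.1 and log above), 1 point per library coloured by group. KO MI replicates 2 and 7 lie apart at the lower right of the left panel, and KO MI replicate 3, at 9.93 CPM of *Gja5*, has 9.62 CPM of *Myl7*.

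For *Hcn4*, *Cntn2* and *Irx3* the post-MI steps were smaller than that of *Hcn2*. *Hcn4* differed by -0.01 ± 0.12 on the log2 scale in WT and by -0.12 ± 0.12 in KO. *Cntn2* differed by -0.04 ± 0.14 and -0.12 ± 0.14, and *Irx3* by 0.19 ± 0.14 and -0.05 ± 0.14. *Tbx3*, higher in KO SH than in the other groups by mean, had a log2 fold change of -0.28 ± 0.07 in KO MI against KO SH (edgeR adjusted p = 0.0220, exact permutation p = 0.0571), under the minimum fold. KO MI replicate 1, at 15.9 CPM, overlapped KO SH, whose lowest library was 15.5 CPM. In WT, *Tbx3* differed by 0.12 ± 0.07.

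The balance of both HCN channels was also described within a library, which leaves the library size out. The ratio of *Hcn4* to *Hcn2* counts, chosen after the values of both were seen, was 0.329, 0.426, 0.320 and 0.395 in WT SH. It was 0.697, 0.592, 0.557 and 0.633 in KO SH, above every WT SH library. In WT MI it was 0.455, 0.545, 0.597 and 0.422, and in KO MI it was 0.771, 1.70, 0.743 and 1.16. In both surgeries the KO libraries lay above the WT libraries of the same surgery, by 1.69-fold after sham and 2.06-fold post-MI in geometric means. The ratio was 1.67-fold higher in KO MI than in KO SH, without overlap, and 1.37-fold higher in WT MI than in WT SH, with overlap. No test is given, since both genes had been seen to differ between these groups. The KO MI ratios over 1 were in replicates 2 and 7. Without these libraries the fold fell to 1.52 against WT MI and to 1.23 against KO SH, and the remaining pair still lay above both groups. Without the libraries of high *Xist* the KO differences were 1.63-fold after sham and 1.78-fold post-MI.

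**Figure D4:**
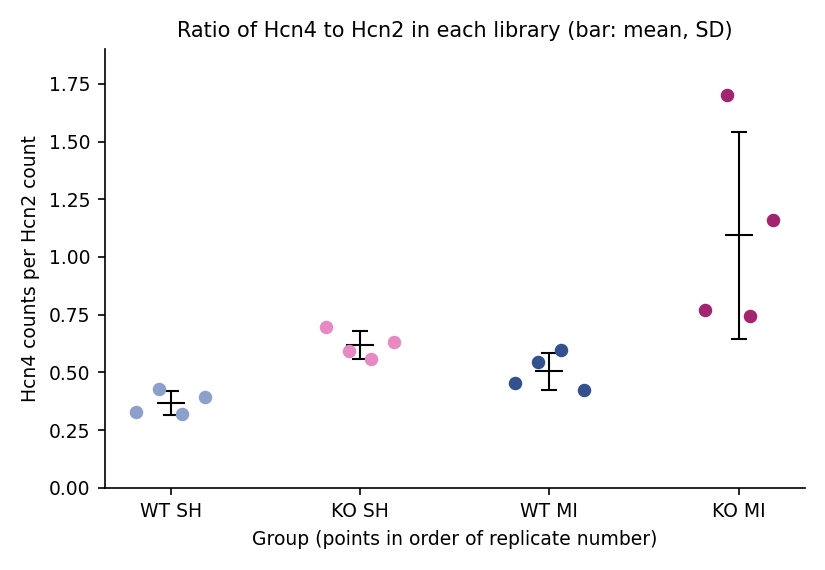
Ratio of *Hcn4* to *Hcn2* counts (y axis, from 0) in each library by group (x axis); points are libraries in order of replicate number, bars are means and error bars are SD (n = 4). The means are 0.367 in WT SH, 0.620 in KO SH, 0.504 in WT MI and 1.09 in KO MI, where the libraries spread from 0.743 to 1.70.

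No tested connexin was called by edgeR in any comparison, and 1 passed the adjusted p alone, *Gja1* in KO MI against KO SH at -0.29 ± 0.07 on the log2 scale (edgeR adjusted p = 0.0104). This gene, the main connexin of working ventricular myocardium, held between 89.1% and 90.9% of connexin signal per kb in the group means, *Gjc1* between 5.20% and 6.20% and *Gja5* between 0.970% and 1.68%. *Gjc1*, the nodal connexin, was the steadiest of the 7, from 37.0 to 45.1 CPM over all 16 libraries, and its log2 fold changes in the 4 pairwise comparisons were between -0.08 and 0.12.

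*Gja5*, the Purkinje and arterial connexin, measured 6.31, 7.57, 5.78 and 7.06 CPM in WT SH and 6.11, 4.89, 4.07 and 4.43 CPM in KO SH. KO SH replicate 1 overlapped WT SH and the other 3 were lower, with a log2 fold change of -0.45 ± 0.20 (edgeR adjusted p = 0.176, exact permutation p = 0.0571). Post-MI it measured 6.16, 7.08, 7.17 and 7.10 CPM in WT and 6.28, 4.92, 9.93 and 4.31 CPM in KO. The KO MI values spread over both sides of WT MI, and the log2 fold change was -0.11 ± 0.19. In KO MI against KO SH it was 0.39 ± 0.20 (edgeR adjusted p = 0.218), a step close in size to that of *Hcn2* in WT but upward. Without the libraries of high *Xist* it was -0.65 in KO SH against WT SH and 0.76 in KO MI against KO SH (edgeR adjusted p = 0.224 and 0.238).

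*Gja5* is also made in atria and arteries. *Myl7* was at 9.62 CPM in KO MI replicate 3 and 10.1 CPM in WT SH replicate 2, the libraries with the most *Gja5* of their groups, and at most 3.72 CPM elsewhere. Of 6 atrial markers 5 were tested, with a median log2 fold change of -1.86 in KO SH against WT SH (1 higher, 0 called). In KO MI against WT MI and against KO SH it was 1.57 and 2.82, with all 5 higher. *Nppa* was called in both, and *Dkk3* and *Myl4* in the latter. *Myl4* was at 66.3 CPM in KO MI replicate 3, 60.8 CPM in WT SH replicate 2, and 30.2 and 28.8 CPM in KO MI replicates 2 and 1. Without the 2 libraries of highest *Myl7* the log2 fold change of *Gja5* was -0.39 in KO SH against WT SH and -0.41 in KO MI against WT MI (edgeR adjusted p = 0.147 and 0.250), and 0.09 for KO MI against KO SH. With KO MI replicates 2 and 7 left out instead, the last was 0.73 and called (edgeR adjusted p = 0.00960). The 6 arterial endothelial markers summed to 66.0 CPM in KO MI replicate 7 and to between 89.5 and 103 CPM in every other library. The part of the atrial or arterial markers in the *Gja5* values was not tested. A neighbouring gene on the opposite strand, *Gpr89*, overlaps the *Gja5* locus and had 367 to 612 counts. The libraries were stranded, and use of strand in counting is not given in the sources used here.

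The 7 genes were also set beside 37 other genes of pacemaking and conduction, of which 33 passed the filter. The lists were fixed with earlier results of these data known, so their shares are descriptions and no test against all genes. The paper names *Cacna1g* and sodium and potassium channel genes among those that differ in KO. After sham surgery 5 of the 33 were called higher in KO and 1 lower, or 18.2%, against 5.01% of all tested genes. In KO MI against WT MI 1 was called higher and 1 lower (6.06%, against 1.73%). In WT MI against WT SH 1 was called higher (3.03%, against 2.78%), and in KO MI against KO SH 1 was called lower (3.03%, against 7.42%). Averaged over surgery 3 were called higher and 2 lower (15.2%, against 3.71%). The median log2 fold change of the 33 was 0.13 after sham and 0.05 post-MI in KO against WT.

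The largest group of these calls was in channels. The T-type calcium channel gene *Cacna1g* rose in KO in both surgeries, and its relative *Cacna1h* rose in KO SH against WT SH, from 5.45 ± 0.384 to 8.16 ± 0.428 CPM (SD, n = 4; log2 fold change 0.58 ± 0.19, edgeR adjusted p = 0.0697). *Cacna1h* also rose in WT MI against WT SH, by 0.92 ± 0.19 on the log2 scale (edgeR adjusted p = 0.0136). The sodium channel gene *Scn10a* rose in KO SH, with a log2 fold change of 0.83 ± 0.28 (edgeR adjusted p = 0.0742). In KO MI against WT MI *Scn10a* differed by 0.45 ± 0.27 and *Cacna1h* by -0.11 ± 0.18 on the log2 scale (edgeR adjusted p = 0.555 and 0.877). The acetylcholine-gated potassium channel subunits were called in different comparisons, *Kcnj3* lower in KO averaged over surgery, at -0.60 ± 0.18 on the log2 scale (edgeR adjusted p = 0.0516), and *Kcnj5* lower in KO MI against KO SH, at -0.55 ± 0.17 (edgeR adjusted p = 0.0402). *Kcnj5* spread from 24.8 to 62.1 CPM over the KO MI libraries. Between genotypes *Kcnj5* was not lower in KO. It measured 45.7 to 48.8 CPM in WT SH and 59.7 to 65.7 CPM in KO SH, a log2 fold change of 0.42 ± 0.17 that was not called (edgeR adjusted p = 0.132). In KO MI against WT MI it was 0.17 ± 0.17 (edgeR adjusted p = 0.767).

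Of 9 transcription factors of the ventricular conduction system and its borders, *Irx3* and *Hey2*, a repressor of atrial and conduction genes in compact myocardium, rose in KO SH against WT SH. *Hey2* measured 12.9 to 18.6 CPM in WT SH and 24.6 to 34.4 CPM in KO SH, with a log2 fold change of 0.96 ± 0.20 (edgeR adjusted p = 0.00795). In KO MI it spread from 17.2 to 42.8 CPM, highest in replicate 7, as *Irx3* was. Of the nodal factors, *Tbx18*, which helps form the sinoatrial node head and is also an epicardial and mural cell factor, fell in KO in both surgeries. Its log2 fold change was -0.54 ± 0.14 after sham and -0.52 ± 0.13 post-MI (edgeR adjusted p = 0.0225 and 0.0523). The 4 epicardial markers summed to 14.6 to 16.6 CPM in WT SH and 15.9 to 20.2 CPM in KO SH, and to 22.1 to 28.8 and 15.7 to 35.8 CPM post-MI. Most of this sum was *Wt1*, with a log2 fold change of -0.24 ± 0.11 in KO SH against WT SH (edgeR adjusted p = 0.223), whereas the other 3, *Upk3b*, *Msln* and *Upk1b*, rose there by 1.38 ± 0.44, 1.44 ± 0.36 and 2.04 ± 0.59 on the log2 scale (edgeR adjusted p = 0.0643, 0.0227 and 0.0416). Post-MI, none of the 4 was called in KO against WT, with a median log2 fold change of 0.01. Their part in the *Tbx18* values was not tested. *Sema3a*, a guidance cue that patterns cardiac nerves, rose in KO SH against WT SH by 0.53 ± 0.12 on the log2 scale (edgeR adjusted p = 0.0111). In KO MI against WT MI it differed by 0.19 ± 0.11 (edgeR adjusted p = 0.559).

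**Figure D5:**
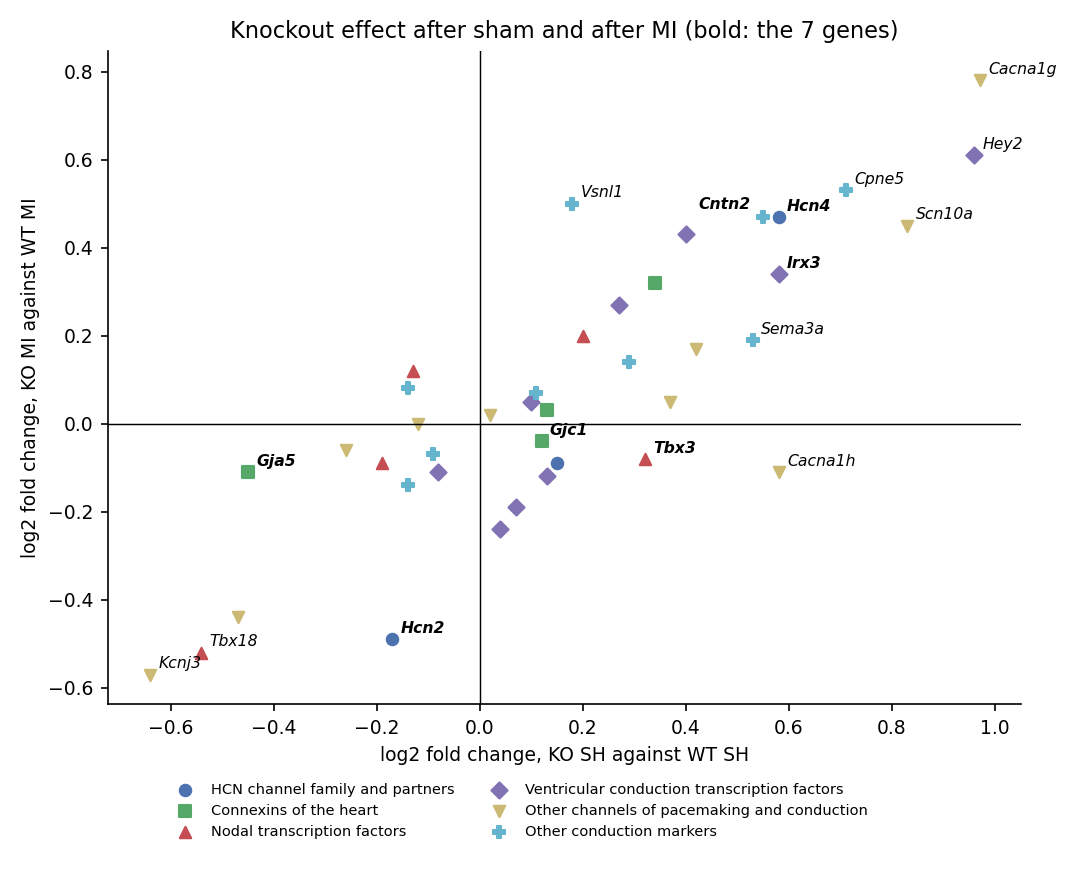
Log2 fold change of each tested conduction gene in KO SH against WT SH (x axis) and KO MI against WT MI (y axis), with symbols for the 6 lists and the 7 genes in bold. *Hcn4*, *Cntn2* and *Irx3* lie at 0.55 to 0.58 on the x axis beside *Sema3a* and *Cacna1h*, and *Cacna1g* and *Hey2* lie farthest to the right at 0.97 and 0.96.

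Genes with the most similar pattern were found by Pearson correlation of log2(CPM + 0.5) over the 16 libraries among 14119 genes with a mean of at least 1 CPM. The 16 libraries share group differences, so these are descriptions. For *Hcn2* they were *Abcb1a*, *Mylk4* and *Srsf5* (r = 0.951, 0.940 and 0.937). For *Hcn4* they were *Fxyd6*, *Usp20* and *Bambi* (r = 0.906, 0.903 and 0.891), and for *Irx3* they were *Meis1*, *Prickle1* and *Ndn* (r = 0.917, 0.897 and 0.895). None of the 7 was among the 3 closest of another. For *Tbx3* they were *Sox17*, an endothelial factor, *Fmo1* and *Dnm3* (r = 0.888, 0.849 and 0.839), and for *Gja5* they were *Adamts15*, *Fhl3* and the macrophage gene *Adgre1* (r = 0.902, 0.832 and 0.792). In KO MI replicate 3, the library highest in *Gja5*, *Adgre1* stood at 9.91 CPM, against at most 4.82 CPM elsewhere. The sum of 4 macrophage markers, *Adgre1* among them, stood less apart, at 61.1 CPM there and 52.0 CPM in WT MI replicate 2, the next highest. *Cntn2* was closest to *Gm13835*, a processed pseudogene whose reads may be shared with its parent gene, *Nxpe3* and *Tmx1* (r = 0.863, 0.859 and 0.852). *Gjc1* had the weakest likeness, with 0.770 for an unnamed gene, 0.748 for *Zfp994* and 0.746 for *Lnx2*.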

How the data were processed

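RNA of mouse ventricles was sequenced in 16 libraries. The authors deposited RSEM expected counts per gene on GRCm39, without normalization and in whole numbers. The study's methods name Skewer, STAR and RSEM, whereas the submitters' processing notes list cutadapt (3.4), HISAT2 (2.2.1), RSEM (1.1.17) and DESeq2, and the difference could not be settled. The annotation release is not given in the sources used here, and GENCODE M39 was used for names and exon lengths. RSEM divides reads shared by several genes, which adds uncertainty for pseudogenes.

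Genes whose counts summed to 10 or more in every group were fitted in edgeR (4.0.16, R 4.3.3) with TMM scaling, 1 coefficient per group and all 16 libraries, and tested with quasi-likelihood F-tests (two-sided). Single genes also had exact permutation tests over every split of the libraries, computed with NumPy (2.4.6). The edgeR fit was tested on simulated counts with known fold changes in KO SH against WT SH. Alternatives were DESeq2 (1.42.0), its size factors, other filters and thresholds, a robust fit, only the groups compared, a replicate block, omission of libraries and another pseudocount. Leaving out the 2 libraries of highest *Myl7* was chosen after seeing the data, as was the *Hcn4* to *Hcn2* ratio and its values without libraries. The genes, lists and tests were chosen with earlier results of these data known. Named genes are the 7, the listed genes called in any comparison (for the connexins, the most abundant), *Lrrc10*, *Xist* and Y-linked genes, and the 3 genes most like each of the 7, with marker genes of other cell types where they moved with a result. Protein sequences were not used here. The values of 1 gene of the lists are not reported here.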

Additional observations from a re-analysis of the deposited data

Results flagged for a closer look

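Within each group of 4, the library at one end was compared with the spread of the others by Dixon's test over 28 groups (7 genes in 4 groups), where chance alone flags about 1 in 20. In 3 groups a library stood apart. *Hcn2* in KO SH was 10.8 CPM in replicate 1 and 12.0 to 12.2 CPM in the others. *Gja5* in WT MI was 6.16 CPM in replicate 1 and 7.08 to 7.17 CPM in the others. *Irx3* in KO MI was 64.3 CPM in replicate 7 and 44.8 to 45.7 CPM in the others, and replicate 7 is 1 of the libraries with skeletal muscle transcripts, whose part in this value was not tested.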

How the results depend on the processing

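Of 399 values of a gene in a comparison under other settings, 378 kept their direction and whether they were called, though the adjusted p alone could cross its threshold. With 1 library left out, 417 of 448 did. Post-MI, KO against WT gave 0 calls, 1 with the replicate block, 1 with no minimum fold change (*Hcn4* both times) and 0 to 2 with 1 library left out. KO MI against KO SH gave 1 call, 2 with the replicate block, 2 with no minimum fold change and 1 to 2 with 1 library left out. Without KO MI replicates 2 and 7 its 1 call was *Gja5* in place of *Hcn2*. KO against WT averaged over surgery gave 2 calls, 0 without the libraries of high *Xist* and 0 to 3 with 1 library left out. Some signs turned. In WT MI against WT SH, *Hcn4* was 0.00 with only those groups, 0.06 without the libraries of high *Xist*, 0.00 without KO MI replicates 2 and 7, 0.08 without the libraries of highest *Myl7* and -0.09 to 0.08 with 1 library left out. *Cntn2* was 0.05 and 0.04 without the libraries of high *Xist* or highest *Myl7* and -0.09 to 0.04 with 1 library left out, and *Gja5* was -0.02 to 0.11. In KO MI against WT MI, *Gja5*, at -0.11 with all libraries, was 0.02 with the replicate block, 0.11 without the libraries of high *Xist*, 0.23 without KO MI replicates 2 and 7 and -0.41 to 0.03 with 1 library left out. In KO MI against KO SH, without the libraries of high *Xist*, *Cntn2* was 0.05 and *Irx3* 0.13 (-0.20 to 0.02 with 1 library left out). The interaction turned from -0.32 to 0.06 for *Hcn2* without KO MI replicates 2 and 7, to 0.00 for *Cntn2* without the libraries of high *Xist* and from 0.35 to -0.02 for *Gja5* without those of highest *Myl7*. The cause of these changes was not tested. For same-numbered libraries of different groups, 2 of 14 correlations of their deviations were over 0.1 (-0.056 to 0.175). Differently numbered libraries are not given beside them, so these values cannot settle whether same-numbered libraries shared litters or surgery days. Only KO MI has a replicate 7, so the block absorbs that library. DESeq2's size factors shifted the median of all genes by at most 0.006.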

Other observations

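*Irx5*, the neighbour and relative of *Irx3*, was chosen after its values were seen. It measured 4.64 to 6.06 CPM in WT SH and 6.32 to 7.03 CPM in KO SH, and 3.84 to 6.31 CPM in WT MI and 6.78 to 6.83 CPM in KO MI, so the KO libraries lay above the WT libraries in both surgeries. The log2 fold changes were 0.40 ± 0.12 after sham and 0.43 ± 0.12 post-MI (edgeR adjusted p = 0.0540 and 0.0873), both under the minimum of 0.5. *Hopx*, a homeodomain factor of conduction cells, also chosen so, had a log2 fold change of -0.33 ± 0.09 in KO MI against KO SH (edgeR adjusted p = 0.0226), under the same minimum.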
